A study of Mus musculus with 6 samples.

Results

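The genes described here drive and mark the division of cells: cyclins, the kinases that cyclins activate, the inhibitors and phosphatases that set kinase activity, mitotic regulators, and the machinery of DNA replication. They were taken by name, as 41 genes, and every probe set whose platform symbol was exactly 1 of those names was used. In all, 40 of the 41 genes had at least 1 probe set, which gave 93 of the 45037 probe sets tested and 40 of the 18193 genes with a symbol of their own. No probe set was listed under Ccnb1, so cyclin B1 was not analysed here. Their levels were read on Affymetrix expression arrays of whole testis from mice aged 5 weeks, 3 arrays labelled wild type and 3 labelled Phf13 knockout. Phf13 encodes a PHD finger protein that binds methylated histone H3. The sources used here do not give the strain, how the allele was made, in which tissues it acts, or whether 1 animal or a pool was put on an array. Since the labels name replicates without naming animals, the p-values speak for differences among these arrays, which may be technical in part.

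Cyclins are regulatory subunits that switch on cyclin-dependent kinases in turn through the cell cycle: D cyclins with CDK4 and CDK6 in G1, E cyclins with CDK2 at the start of S phase, and A and B cyclins with CDK2 and CDK1 up to mitosis. The testis uses this machinery in more than 1 way, since spermatogonia and some somatic cells divide by mitosis while spermatocytes copy their DNA once and then divide by meiosis. Several genes have germline roles apart from their somatic relatives. Cyclin A1, from Ccna1, is made mainly in male meiotic cells and is needed to leave meiotic prophase, whereas cyclin A2, from Ccna2, serves mitotic cells.

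The arrays were checked before the members were read. Phf13 stood at 9.55, 9.47 and 9.56 on the log2 scale in wild type and at 6.71, 6.60 and 6.55 in knockout, a 7.5-fold lower level (limma adjusted p = 7.7e-06), so the target went with the label on all 6 arrays. Markers of elongating spermatids had a mean of 12.97 in wild type, and 4 of 6 measured epididymis markers lay under the lower quartile of all probe sets, as fits whole testis with germ cells. The control probe sets for 18S ribosomal RNA put the arrays in 2 sets that each hold both genotypes. Wild type 1, wild type 2 and knockout 1 had means from 12.03 to 12.67, and wild type 3, knockout 2 and knockout 3 had means from 9.69 to 10.71. The actin 3' minus 5' difference, a sign of RNA or labelling quality, ran from 0.75 to 0.89 in the first set and from 0.56 to 0.59 in the second. For many of the members below, differences inside each set are given as well.

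None of the 93 member probe sets passed the threshold for a difference between knockout and wild type, an adjusted p under 0.05 in limma. The smallest adjusted p among them was 0.224, and over the whole array 0.0999% of probe sets passed. At an unadjusted p under 0.05, 13 of the 93 were counted (14%), against 15.1% of all probe sets, so the members were not called more often than other probe sets. With the brightest probe set standing for each gene, 5 of the 40 genes were lower and 1 was higher at that unadjusted level, against 8.72% and 8.58% of all genes. The 5 lower genes were Foxm1, Plk1, Kif11, Ccna1 and Rrm1, and the higher gene was Cdkn1b. The lower count was 3 without wild type 1 and 2 without knockout 3. The higher count was 3 without wild type 3, 5 without knockout 1, and 0 without wild type 1, knockout 2 or knockout 3. Shares of all genes are not given for the fits with an array left out. All 3 knockout arrays lay below all 3 wild-type arrays in 9 of the 40 genes (22.5%), against 13.5% of all genes, and above them in 1 (2.5%), against 9.92%.

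The differences were small and mostly below 0. Of the 40 genes 29 (72.5%) had a difference below 0, against 47.9% of all genes. The members' median was -0.08 on the log2 scale, against 0.01 over all genes. The members ran from -0.42 for Foxm1 to 0.55 for Cdkn1b. Over all 93 member probe sets, 58 (62.4%) were below 0. The members were bright, with 39 of the 40 above the median level of probe sets. In no comparison with all genes were these matched to the members for level. The limma 95% interval lay within 0.5 of 0 for 31 of the 40 members (77.5%), against 76.7% of all genes, and within 1 of 0 for all 40, against 98.6%. A shift of 1 log2 unit in either direction thus lay outside the interval of every measured member, while smaller shifts were limited in precision by the 3 arrays a group. A lower level in mixed tissue can come from fewer cells of a type or from less RNA in each cell, and these cannot be told apart here.

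**Figure D1:**
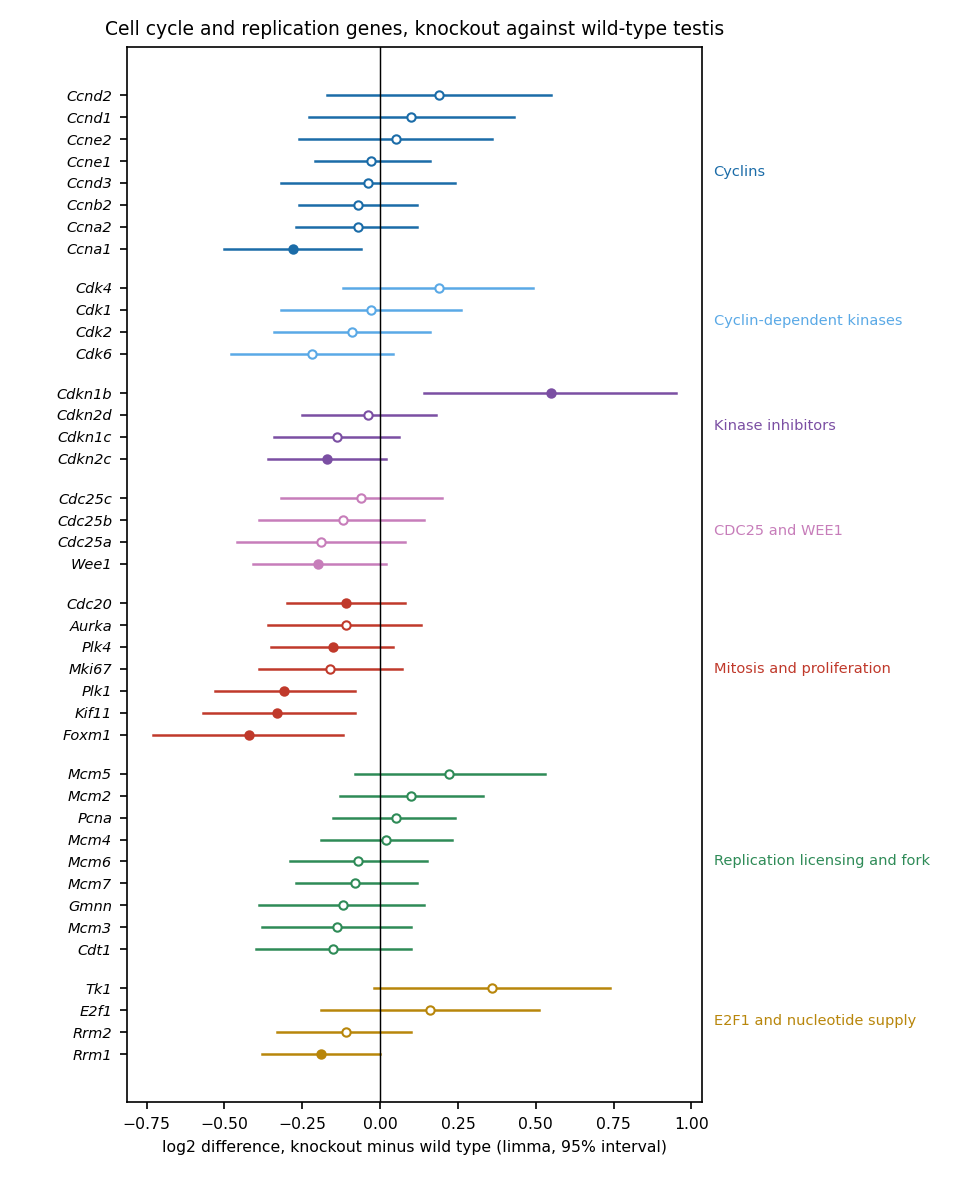
Log2 difference between knockout and wild type for the 40 measured genes, grouped by role, with points at the limma estimate and bars for its 95% interval, on 3 arrays a genotype. Filled points are the 10 genes whose genotypes did not overlap, 9 of them lower in knockout, and all 7 genes of the group of mitosis and proliferation lie left of 0.

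Among the cyclins, Ccna1 was the gene whose genotypes did not overlap in its brightest probe set. Ccna1 was at 10.22, 10.27 and 10.33 in wild type and at 9.91, 10.15 and 9.92 in knockout. All 3 knockout arrays lay below all 3 wild-type arrays, with a difference of -0.28 (SE 0.098, 95% interval -0.50 to -0.06, limma adjusted p = 0.262), a 1.21-fold lower level that did not pass over all probe sets. It was similar inside the sets of arrays, at -0.34 and -0.30. Its mitotic relative Ccna2 was at 7.64, 7.58 and 7.58 in wild type and at 7.44, 7.55 and 7.59 in knockout. Its genotypes overlapped, with a difference of -0.07 (95% interval -0.27 to 0.12) that was -0.17 and -0.01 inside the sets, and a second, dimmer probe set of Ccna2 differed by 0.21. The gap between Ccna1 and Ccna2 within an array averaged 2.67 ± 0.086 over wild-type arrays and 2.47 ± 0.135 over knockout arrays (SD, n = 3 each). The gap changed by -0.21, and its values overlapped between the genotypes. The exact two-sided permutation p was 0.2, where 0.1 is the smallest that 3 against 3 allows. Since no outcome could have gone below 0.1, that test could not decide whether the gap differs. Only the brightest Ccna2 probe set was used for the gap. The dimmer one, whose difference had the opposite sign, was not tested in this way.

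Cyclin B2, a partner of CDK1 in mitosis and meiosis, was close between the genotypes. Ccnb2 stood at 11.14, 11.17 and 11.22 in wild type and at 11.06, 11.14 and 11.13 in knockout, a difference of -0.07 (95% interval -0.26 to 0.12). Wild type 1 and knockout 2 had the same value. For the E cyclins, which start S phase, the main probe set of Ccne1 differed by -0.03 (6.93, 6.92 and 6.93 against 6.88, 6.89 and 6.93). Ccne2 was at 8.14, 8.47 and 8.64 in wild type and at 8.48, 8.36 and 8.56 in knockout, a difference of 0.05, and wild type 1 was its lowest array. The sets of arrays gave Ccne2 opposite signs, at 0.17 and -0.18.

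The D cyclins link growth signals to CDK4 and CDK6. In the brightest probe sets of Ccnd1 and Ccnd2 the sets of arrays gave opposite signs, but not in every other probe set. Ccnd2, used by spermatogonia and somatic cells, was at 6.55, 6.54 and 6.34 in wild type and at 6.32, 6.73 and 6.95 in knockout. The knockout arrays of the second set were its highest and knockout 1 its lowest, so the difference was -0.22 inside the first set but 0.50 inside the second. Of its 7 probe sets 5 differed by more than 0, and 2 of these had an unadjusted p under 0.05, at 0.33 and 0.31 (limma adjusted p = 0.262 and 0.31). The probe set at 0.33 had all knockout arrays above wild type, with 0.12 and 0.52 inside the sets. Ccnd1 was at 7.15, 6.90 and 6.85 in wild type and at 6.86, 6.99 and 7.35 in knockout, or -0.16 and 0.32 inside the sets. In another Ccnd1 probe set all 3 knockout arrays, at 6.57, 6.58 and 6.69, lay above wild type, at 6.43, 6.37 and 6.33. That difference was 0.24, with 0.17 and 0.30 inside the sets. Ccnd3 was at 9.08, 8.88 and 8.80 in wild type and at 9.05, 8.92 and 8.67 in knockout, with overlapping genotypes and a difference of -0.04. Markers of stroma split between the sets as the brightest probe sets of Ccnd1 and Ccnd2 did. Over 12 genes, medians were -0.08 inside the first and 0.68 inside the second. Their summed linear signal ran from 3255 to 5126 in wild type and from 4972 to 6512 in knockout. For 12 leukocyte markers the medians were -0.17 and 0.32, and the summed signal ran from 1161 to 1473 and from 1035 to 2201. Of the 12 leukocyte genes 1 lay under the lower quartile, and of the 12 stromal genes none did. The part of those cells in the D cyclin values was not tested.

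No cyclin-dependent kinase among the members had genotypes that separated. Cdk1, the kinase of M phase, was at 8.91, 9.02 and 9.23 in wild type and at 8.81, 9.08 and 9.18 in knockout, a difference of -0.03 (95% interval -0.32 to 0.26). Cdk2, which also sits on meiotic chromosomes, was at 9.18, 9.40 and 9.10 against 9.26, 9.08 and 9.08, a difference of -0.09. Wild type 2 was high among otherwise close values of Cdk2. Of the kinases of G1, Cdk4 was at 8.0, 7.88 and 8.20 in wild type and at 7.98, 8.27 and 8.39 in knockout, with all 3 of its probe sets above 0. Cdk6 was at 6.48, 6.63 and 6.23 against 6.18, 6.27 and 6.23, which made -0.38 inside the first set and 0.02 inside the second. Wild type 3 shared the level of the knockout arrays for Cdk6. The other Cdk6 probe sets, both dimmer, differed by -0.18 and 0.19.

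The largest difference of any member was in a kinase inhibitor. Cdkn1b, which encodes p27 and holds Sertoli cells and other somatic cells out of the cycle, was at 6.56, 6.88 and 6.92 in wild type and at 6.94, 7.48 and 7.58 in knockout. The knockout arrays lay above wild type, although knockout 1 was only just above wild type 3. The difference was 0.55 (SE 0.177, 95% interval 0.14 to 0.95, limma adjusted p = 0.245), 1.46-fold, with 0.22 in the first set and 0.61 in the second. A dimmer second probe set of Cdkn1b differed by 0.04. Sertoli cell markers were higher beside it. In 17 of 18 of them the difference was above 0 (median 0.34). At an unadjusted p under 0.05, 11 (61.1%) were higher, against 8.58% of all genes, with 0 past the adjusted threshold in limma. Their summed signal, on a linear scale, ran from 23269 to 24631 in wild type and from 29329 to 32432 in knockout, and none of the 18 lay under the lower quartile. Sertoli medians were 0.30 inside the first set and 0.32 inside the second. Other somatic markers also lay mostly above 0, in 6 of 6 Leydig, 11 of 12 stromal and 11 of 12 leukocyte genes. For adipose tissue it was 5 of 5, with 2 of these under the lower quartile, and for endothelial cells 5 of 8. The marker lists were chosen with earlier results of these data known. The part of any of these cells in the Cdkn1b value was not tested.

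The other 3 inhibitors had differences below 0, but only Cdkn2c had separated genotypes. Cdkn2c, which encodes p18 and is used in spermatogenesis, was at 10.31, 10.37 and 10.29 in wild type and at 10.19, 10.17 and 10.11 in knockout. Its genotypes did not overlap, with a difference of -0.17 (limma adjusted p = 0.381) and -0.15 in each set of arrays. Cdkn2d, its relative p19, differed by -0.04 and Cdkn1c, or p57, by -0.14, both with overlapping genotypes.

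The enzymes that add and remove the inhibitory phosphate of CDK1 and CDK2 were all below 0 in the brightest probe set. Wee1, the kinase that adds it, was at 8.60, 8.51 and 8.42 in wild type and at 8.40, 8.32 and 8.22 in knockout, a difference of -0.20 (limma adjusted p = 0.366). Its genotypes did not overlap, by the margin between 8.42 and 8.40. A second Wee1 probe set, slightly dimmer, differed by 0.05 with overlapping genotypes. The CDC25 phosphatases, which remove it, differed by -0.19 for Cdc25a, -0.12 for Cdc25b and -0.06 for Cdc25c, and their genotypes overlapped. Cdc25b was the dimmest of the members, with wild-type arrays at 4.89 ± 0.161 and knockout arrays at 4.77 ± 0.136 (SD, n = 3 each). Inside the sets of arrays Cdc25b differed by -0.26 and -0.04.

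The mitotic regulators held the most lower values. All 7 genes had a difference below 0, with a median of -0.16, and in 5 of the 7 every knockout array lay below every wild-type array, against 13.5% of all genes in that direction. Foxm1, a transcription factor that switches on genes of G2 and M phase, was at 8.47, 8.51 and 8.20 in wild type and at 8.12, 8.06 and 7.73 in knockout. Its difference was -0.42 (SE 0.133, 95% interval -0.73 to -0.12, limma adjusted p = 0.239), with -0.37 and -0.30 inside the sets. Of its other probe sets 2 differed by -0.26 and -0.21, and a last one, near 2 on every array and so very dim, by 0.17. Plk1, a kinase of spindle assembly and of both mitotic and meiotic division, was at 9.25, 9.24 and 9.18 against 8.95, 9.04 and 8.76. Its wild-type arrays lay within 0.07 of each other, and the difference of -0.31 (SE 0.099, limma adjusted p = 0.242) was about the same in both sets, at -0.30 and -0.28. Kif11, the kinesin motor that pushes spindle poles apart, was at 6.76, 6.61 and 6.59 in wild type and at 6.18, 6.32 and 6.48 in knockout. Its difference was -0.33 (SE 0.106, limma adjusted p = 0.245), with -0.50 in the first set and only -0.19 in the second. The other Kif11 probe sets differed by -0.24 and -0.31.

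Smaller separations were seen for other mitotic genes. Plk4, the kinase that starts the copying of centrioles, was at 9.54, 9.62 and 9.60 in wild type and at 9.42, 9.51 and 9.37 in knockout, a difference of -0.15. A second Plk4 probe set, at 8.83, 9.02 and 8.94 against 8.60, 8.62 and 8.67, differed by -0.30 (SE 0.089) and gave the smallest adjusted p of all member probe sets (limma adjusted p = 0.224). Cdc20, an activator of the anaphase-promoting complex, was at 11.44, 11.52 and 11.54 in wild type and at 11.41, 11.41 and 11.35 in knockout, a difference of -0.11. All 3 probe sets were below 0 in Plk4 and in Cdc20. Aurka, a spindle pole kinase, differed by -0.11 and Mki67, the gene of the proliferation marker Ki-67, by -0.16, with overlapping genotypes in both. Inside the sets, Mki67 differed by -0.30 and by 0.04.

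**Figure D2:**
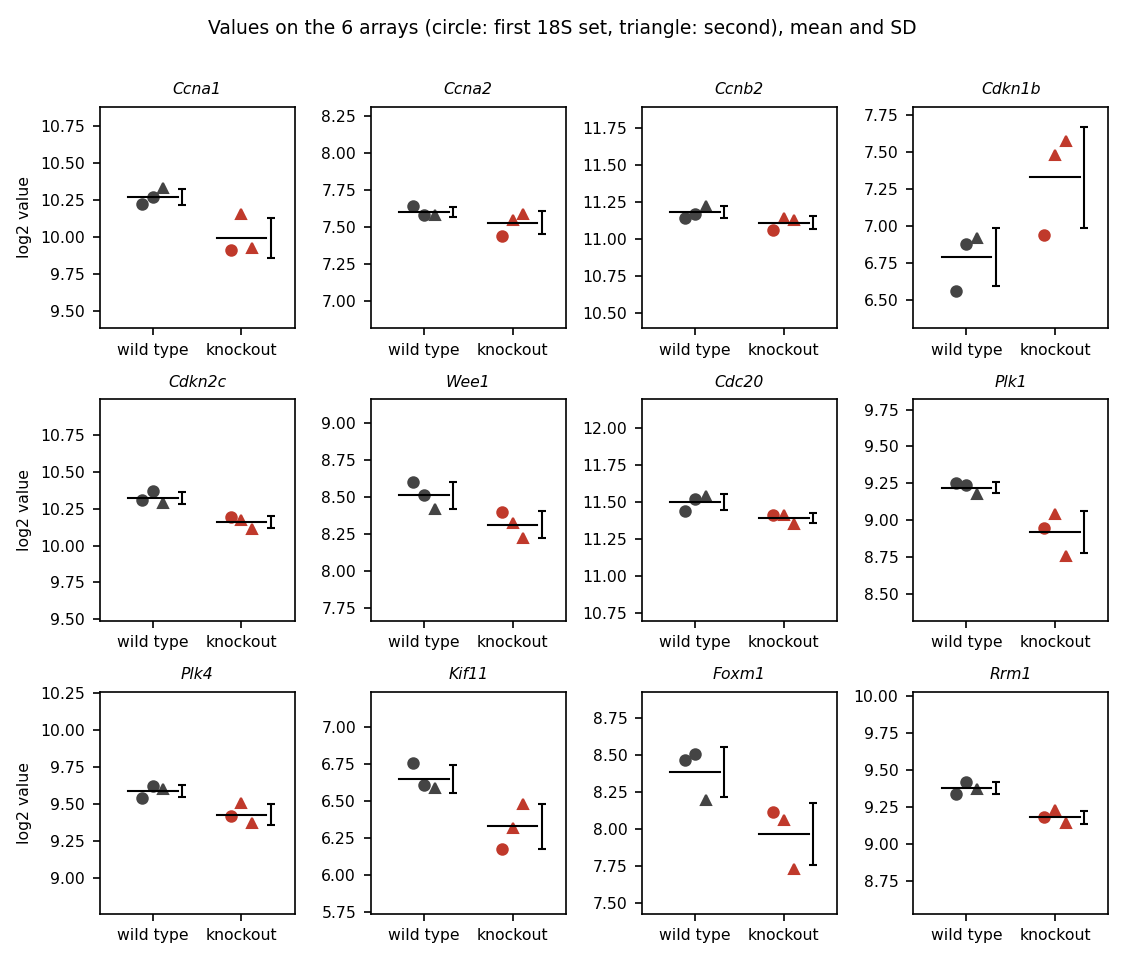
Log2 values on the 6 arrays for Ccna2, Ccnb2 and the 10 members whose genotypes did not overlap, with a line at each genotype's mean and a bar for its SD (n = 3). Every panel spans the same height on its vertical axis; circles mark the first set of arrays by 18S signal and triangles the second, and only Cdkn1b is higher in knockout.

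Further mitotic genes also lay mostly below 0. This held for 24 of the 30 on a wider list (median -0.15), and 7 (23.3%) were lower at an unadjusted p under 0.05, against 8.72% of all genes. None was higher at that level and none passed the adjusted threshold in limma. The wider list was chosen with earlier results of these data known. The germline Aurora kinase Aurkc was at 9.12, 9.18 and 9.14 in wild type and at 8.61, 8.76 and 8.82 in knockout, a difference of -0.42 (limma adjusted p = 0.168). Aurkb, the mitotic kinase of the chromosomal passenger complex, differed by -0.39, the cytokinesis motor gene Kif23 by -0.31 and the spindle gene Tacc3 by -0.31. Markers of pachytene spermatocytes were lower beside these genes, with 12 of 14 below 0 (median -0.14) and a summed signal of 42303 to 43001 in wild type and 39174 to 40392 in knockout. None of those 14 lay under the lower quartile, and Aurkc is in both lists. The lower sum was not particular to that list. Early meiosis markers, with 10 of 15 below 0, summed to 16916 to 17602 in wild type and 16543 to 16857 in knockout. Spermatogonium markers, with 6 of 16 below 0, summed to 6051 to 6240 and to 5752 to 5828. Sums of round and of elongating spermatid markers overlapped between the genotypes. The part of any of these germ cells in the mitotic values was not tested.

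Promoters of the members were read to see what the genes of each role share in sequence. Windows from 250 bases before to 50 bases after the start were found for 31 of the 41 genes in RefSeq on GRCm38.p6. The cell cycle homology region, written TTTGAA, is known from genes of G2 and M phase, and E2F factors bind words such as TTTGGCGC, TTTCCCGC, TTTCGCGC and TTTGCCGC in genes of G1 and S phase. Both strands were searched, and the E2F words can overlap each other. Of mitotic members 5 of 6 held TTTGAA and 0 an E2F word, whereas of replication members 1 of 7 held TTTGAA and 5 an E2F word. Over all 27025 genes, 20.2% held TTTGAA and 2.6% an E2F word. Of the 8 members with TTTGAA 4 are shown first, and of the 8 with an E2F word 3 are shown after them, as examples. They run 5' to 3' along the gene, with the TTTGAA or E2F match in capitals. Cdk1, shown for its TTTGAA, also held the E2F word TTTCGCGC, 131 bases before the start.
Kif11: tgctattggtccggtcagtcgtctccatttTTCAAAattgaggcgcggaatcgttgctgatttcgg
Cdc20: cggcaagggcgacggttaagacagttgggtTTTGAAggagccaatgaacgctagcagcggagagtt
Mki67: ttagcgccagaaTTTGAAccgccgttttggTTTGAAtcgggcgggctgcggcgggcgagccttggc
Cdk1: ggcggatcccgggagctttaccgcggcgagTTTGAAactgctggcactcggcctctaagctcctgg
Mcm6: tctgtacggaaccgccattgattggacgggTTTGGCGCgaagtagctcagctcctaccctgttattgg
Mcm7: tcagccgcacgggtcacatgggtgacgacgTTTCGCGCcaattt
Cdc25a: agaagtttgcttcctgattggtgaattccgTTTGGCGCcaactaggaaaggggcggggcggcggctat

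These stretches lie at chr19:37376333-37376398 on the plus strand for Kif11, where the word is on the opposite strand, 19 bases before the start. On the minus strand lie Cdc20 at chr4:118437326-118437391 (18 bases before the start), Mki67 at chr7:135716442-135716507 and Cdk1 at chr10:69352892-69352957 (15 bases before the start). Mcm6 is at chr1:128359715-128359782 and Mcm7 at chr5:138171854-138171897, both on the minus strand, and Cdc25a is at chr9:109875482-109875549 on the plus strand. The CCAAT box, which NF-Y binds, was in 24 of the 31 members (77.4%) and in 41.1% of all genes. Differences between genotypes were set beside the words, with no test. The 8 measured members with TTTGAA had a median of -0.11, against -0.08 for the 22 without it. The 8 with an E2F word had -0.08, against -0.11 for those without. The 23 with a CCAAT box had -0.11, with 19 below 0, against -0.03 for the 7 without it, with 4 below 0.

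Replication genes were divided in sign. MCM2 to MCM7 form the helicase loaded at origins. In the brightest probe sets 3 of the 6 Mcm genes differed by more than 0 and 3 by less, from -0.14 for Mcm3 to 0.22 for Mcm5. These signs depended on the probe set. Another probe set had the opposite sign for Mcm2 (-0.22), Mcm3 (0.04), Mcm6 (0.15) and Mcm7 (0.07), but not for Mcm4 or Mcm5. Mcm7 averaged 11.05 ± 0.046 over wild-type arrays and 10.97 ± 0.065 over knockout arrays (SD, n = 3 per genotype), with overlap. Its difference of -0.08 had a 95% interval from -0.27 to 0.12. Pcna encodes the sliding clamp of DNA polymerases. Its genotypes overlapped, with a difference of 0.05 (95% interval -0.15 to 0.24). Cdt1, which loads the helicase, differed by -0.15, with -0.30 inside the first set and -0.03 inside the second. Another Cdt1 probe set differed by -0.26, with all knockout arrays below wild type and -0.26 inside each set. Gmnn, whose product geminin blocks Cdt1, differed by -0.12. Of 9 replication members 0 had separated genotypes in the main probe set and 0 had an unadjusted p under 0.05.

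Of 40 other replication genes 28 had a difference below 0 (median -0.13). At an unadjusted p under 0.05, 10 (25%) were lower, against 8.72% of all genes, and 0 were higher. In limma 0 passed the adjusted threshold. These genes, too, were listed with earlier results of these data known. Pola2, a subunit of the polymerase that makes primers, was at 7.97, 7.93 and 7.85 in wild type and at 7.56, 7.55 and 7.46 in knockout. That difference of -0.39 (SE 0.086, limma adjusted p = 0.167) was larger than the spread of either genotype, and was -0.39 and -0.34 inside the sets. Pold1, the catalytic subunit of polymerase delta, differed by -0.33, the primase subunit gene Prim2 by -0.31 and the clamp loader gene Rfc5 by -0.25, each with knockout arrays below wild type.

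Genes that supply nucleotides for S phase did not share a direction. Rrm1, the large subunit of ribonucleotide reductase, was at 9.34, 9.42 and 9.37 in wild type and at 9.18, 9.23 and 9.14 in knockout, with no overlap. Its difference was -0.19 (SE 0.083, 95% interval -0.38 to 0.00, limma adjusted p = 0.322), and its other probe sets differed by -0.26 and -0.31, the last of them near 2 and so very dim. Rrm2, the small subunit, differed by -0.11 with overlap. Tk1, the thymidine kinase of S phase, differed by 0.36, with wild-type arrays at 5.09 ± 0.215 and knockout arrays at 5.45 ± 0.298 (SD, n = 3 per genotype), limma adjusted p = 0.359, with wild type 3 at the level of knockout 2. E2f1, the transcription factor of G1 and S phase genes, differed by 0.52 inside the first set but by -0.25 inside the second, so its overall 0.16 had no steady sign. Among 7 measured genes of the wider list 2 were lower at an unadjusted p under 0.05, the mitochondrial kinase gene Tk2 at -0.29 and Shmt1 at -0.26. That is 28.6% of the list, against 8.72% of all genes, and 0 passed the adjusted threshold in limma. This list was also chosen with earlier results of these data known.

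Agreement between the probe sets of a gene was mixed. Of 27 members with more than 1 probe set, 9 had all of them below 0, 5 had all above 0 and 13 had both signs. Of the 93 probe sets 10 had a mean under the lower quartile of the array, none of them the probe set that stood for its gene. The brightest probe set was of a type that can bind several transcripts in 9 of the 40 genes, among them Cdk4, Mcm5, Mcm7 and Cdc20.

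**Figure D3:**
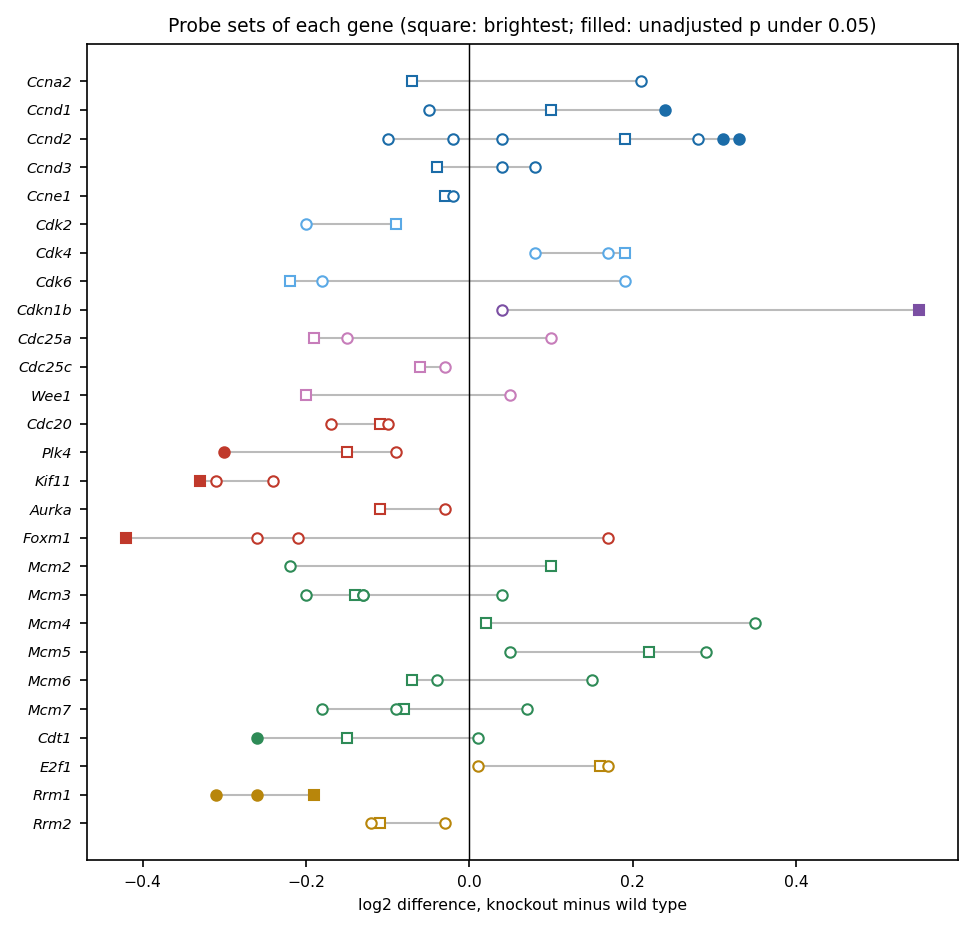
Log2 difference between knockout and wild type for every probe set of the 27 members that have more than 1, with a square for the brightest probe set and filled marks for an unadjusted p under 0.05. Kif11 and Rrm1 have 3 probe sets below 0 each, while Ccnd2 runs from -0.10 to 0.33 and Cdkn1b from 0.04 to 0.55.

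The arrays did not contribute evenly. Knockout 1 was the lowest array for 17 of the 40 members and the highest for 1, while knockout 3 was the lowest for 10 and the highest for 10. Wild type 3 was the lowest for 1. The sets of arrays share no array, so the difference could be read once in each. It was below 0 in both for 25 of the 40 members (62.5%), against 34.8% of all genes, and above 0 in both for 6 (15%), against 27.8%. Medians over the members were -0.15 in the first set and -0.05 in the second, against -0.01 and -0.02 over all genes. Knockout is 1 array in the first set and wild type 1 array in the second, so these are values with no test.

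**Figure D4:**
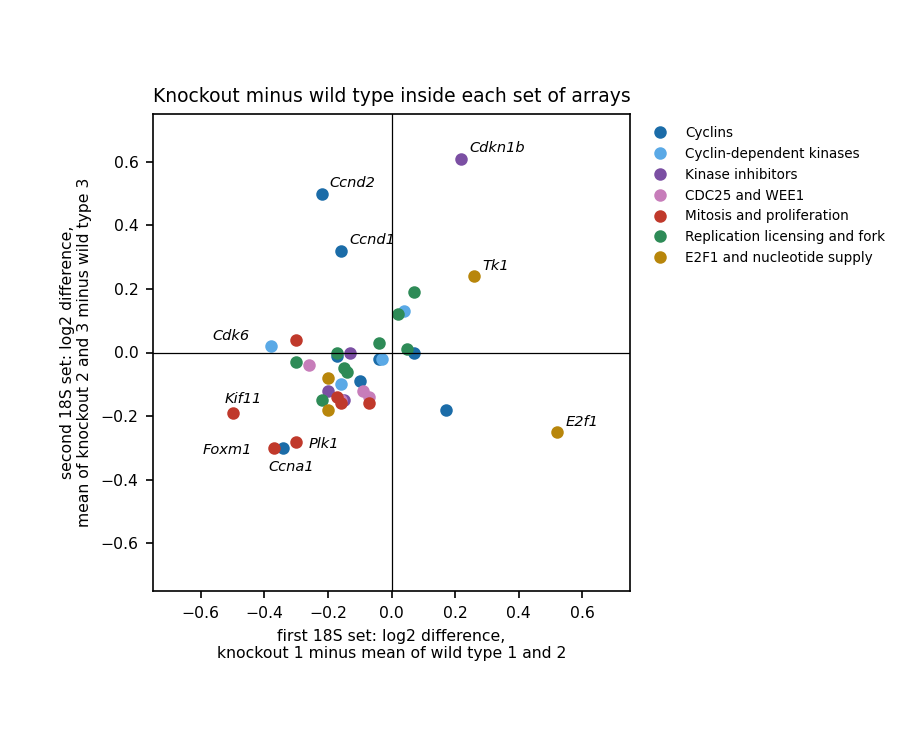
Log2 difference between knockout and wild type within the first set (horizontal axis) and within the second set (vertical axis), each point 1 of the 40 members, coloured by role. Foxm1, Plk1, Kif11 and Ccna1 lie below 0 on both axes, whereas Ccnd1, Ccnd2 and E2f1 have opposite signs in the 2 sets, each gene read in its brightest probe set.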

How the data were processed

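Whole-testis RNA from 6 mouse samples was read on Affymetrix arrays. The authors deposited log2 values, 1 for each probe set, and the submitters' processing notes name Affymetrix Expression Console (version 1.4.1). The scale was read from the values, and the sources used here do not give the normalization. Of 45101 probe sets, 64 controls were left out of the tests. Names came from the platform annotation, under which 34945 probe sets have 1 symbol, 932 several and 9160 none. The brightest probe set over all 6 arrays stood for a gene.

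Log2 values were fitted on genotype with limma 3.58.1 in R 4.3.3 (lmFit, eBayes, two-sided), without a filter, with Benjamini-Hochberg adjustment over all 45037 probe sets and a threshold of 0.05. The script was tested on simulated data. The members and gene lists were chosen with earlier results of these data known. Arrays are written by genotype and replicate number. Values per array are given for the cyclins and their kinases and for members with an unadjusted p under 0.05 or genotypes that do not overlap, and at most 4 genes are named from any other list. Alternatives were blocks for replicate number, title codes and 18S sets, a filter, 2 normalizations, other variance models, array weights, averaged probe sets for each gene, and each array left out. Spermatogonium, early meiosis, round and elongating spermatid, Leydig, endothelial, adipose and epididymis markers had medians of 0.06, -0.07, -0.02, -0.03, 0.24, 0.03, 0.34 and 0.03. The Leydig median was -0.14 inside the first 18S set and 0.25 inside the second.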

Additional observations from a re-analysis of the deposited data

How the results depend on the processing

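No member probe set passed the adjusted threshold in the fits with a block, a filter, another normalization or variance model, or with any 1 array left out. With array weights 2 passed as higher and 3 as lower (Ccnd2, Cdkn1b, Foxm1, Plk4 and Kif11), or 5.38% of member probe sets against 7.07% of all, and 4 and 9 genes had an unadjusted p under 0.05. At that unadjusted level the count of higher genes was 3 with the replicate block and 2 with quantile normalization. With 1 array left out it ran from 0 to 5, and the count of lower genes from 2 to 5. The cause was not tested. Shares of all genes at the unadjusted level are not given for these fits, so these counts cannot be read as more or fewer than elsewhere. Without wild type 3, 2.61% of all probe sets passed, and 0 of the 93. The median over the members ran from -0.10 to -0.05 over all fits. Replicate numbers were not treated as pairs in the main fit. Deviations of same-numbered arrays correlated at 0.26, 0.07 and 0.12, and those of arrays with unlike numbers at -0.20 to 0.13. With the replicate block no member was called, and 28 probe sets passed over the whole array against 45. The smallest adjusted p of the member probe sets was 0.11 with that block, against 0.224 in the main fit (limma). Of the 21 members with values per array, Ccna2, Ccnd1, Ccnd3, Ccne2 and Cdk1 changed sign in at least 1 fit, and Ccne1 and Cdk2 came to 0 at 2 decimals in 1 fit each, while Foxm1, Plk1, Kif11, Ccna1, Rrm1 and Cdkn1b kept theirs in all 15. Their adjusted p ran from 0.0477 to 0.541 for Foxm1 and from 0.0283 to 0.547 for Cdkn1b. No background level was used, so a difference between dim probe sets is uncertain.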

Other observations

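Genes around the members were read as well, from lists of other cyclins, other kinases and their regulators, and the Rb and E2F families, with 18, 28 and 18 genes measured. None passed the adjusted threshold in limma, and 2, 4 and 2 genes were lower and 1, 2 and 3 higher at an unadjusted p under 0.05, against 8.72% and 8.58% of all genes. The medians were -0.05, -0.04 and -0.07. Ccnb3, a cyclin of meiotic cells, was at 4.27, 4.48 and 4.84 in wild type and at 4.83, 5.34 and 5.45 in knockout. That difference of 0.68 (SE 0.192, limma adjusted p = 0.219) was larger than that of any member, although wild type 3 and knockout 1 met, and it was 0.46 and 0.56 inside the sets of arrays. Cdk20 was at 8.67, 8.78 and 8.75 in wild type and at 8.43, 8.41 and 7.96 in knockout, a difference of -0.47 (limma adjusted p = 0.22). Cdk16, a kinase needed for sperm formation, differed by 0.34 and Cdk5 by 0.43.

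Of the 18 measured genes of the Rb and E2F families, 10 had a difference below 0 and 8 above it. E2f5, a repressor, was at 8.30, 8.35 and 8.52 in wild type and at 8.67, 8.71 and 8.70 in knockout, a difference of 0.30 (limma adjusted p = 0.228) with no overlap. E2f3, an activator, differed by 0.27 and Tfdp2, a partner of E2F proteins, by 0.24, both with knockout arrays above wild type. Lin52, of the MuvB complex, was high on 2 arrays, wild type 1 at 6.58 and wild type 2 at 6.38, and between 5.20 and 5.40 on the others. Its difference was -1.27 within the first set and 0.05 within the second.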
